A study of Mus musculus with 2 samples.

Results

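The genes described here encode the proteins that coat lipid droplets and the lipases that empty them. They were taken as a list of 10 symbols, Plin1, Plin2, Plin3, Plin4, Plin5, Cidea, Cidec, Pnpla2, Lipe and G0s2, and each matched 1 of the 55536 annotated mouse genes measured. Hearts of 2 female mice aged 10 days, replicates 1 and 2, gave 1 total RNA library each, made from 300 ng. Both animals were of strain B6CASTF1/J, a hybrid of C57BL/6J and CAST/EiJ, and neither carries a treatment, a batch or a litter in the labels. The labels number the females separately and call them biological replicates, but list both under the same donor record. The comparisons are therefore between genes within each heart and between the 2 hearts, and no condition is tested.

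Heart muscle burns fatty acids but stores little fat. Fatty acids that enter the cell are esterified to triglyceride, held in a droplet under a coat of perilipins, and released again by a chain of lipases. Plin5 is the perilipin of oxidative muscle, where it binds the droplet to mitochondria. Plin2 and Plin3 coat droplets in most cells, Plin4 occurs in fat and in muscle, and Plin1 is the perilipin of fat cells. Pnpla2, the adipose triglyceride lipase, removes the first fatty acid, Lipe, the hormone-sensitive lipase, the next, and Mgll the last. Abhd5 activates Pnpla2 and G0s2 inhibits it. Cidea and Cidec make droplets fuse and grow in brown and white fat cells.

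The promoters of 4 perilipin and CIDE genes are shown because the comparisons below turn on them: Plin5 and Plin2 as the leading coat genes of the heart, and Plin1 and Cidec as the fat-cell genes that set the 2 hearts apart. Each sequence is from RefSeq on build GRCm38.p6 (mm10), runs from 250 bases before a transcript start to 50 bases after it, and is written 5′ to 3′ on the strand of the gene, here the minus strand. Capitals mark the motif AGGTCA, the core of many nuclear receptor sites, or its reverse complement.
Plin5, chr17:56117499-56117798: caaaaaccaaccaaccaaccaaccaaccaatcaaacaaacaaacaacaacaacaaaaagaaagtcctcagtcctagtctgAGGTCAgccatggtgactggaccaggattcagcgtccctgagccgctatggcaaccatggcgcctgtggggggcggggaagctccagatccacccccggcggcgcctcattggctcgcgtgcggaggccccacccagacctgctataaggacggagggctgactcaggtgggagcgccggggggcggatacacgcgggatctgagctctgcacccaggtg
Plin2, chr4:86670010-86670309: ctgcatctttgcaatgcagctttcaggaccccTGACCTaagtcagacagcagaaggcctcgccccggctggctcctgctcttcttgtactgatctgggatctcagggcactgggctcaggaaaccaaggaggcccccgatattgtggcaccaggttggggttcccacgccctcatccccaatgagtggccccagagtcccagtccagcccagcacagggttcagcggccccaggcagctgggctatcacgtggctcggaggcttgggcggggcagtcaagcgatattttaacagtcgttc
Plin1, chr7:79732727-79733026: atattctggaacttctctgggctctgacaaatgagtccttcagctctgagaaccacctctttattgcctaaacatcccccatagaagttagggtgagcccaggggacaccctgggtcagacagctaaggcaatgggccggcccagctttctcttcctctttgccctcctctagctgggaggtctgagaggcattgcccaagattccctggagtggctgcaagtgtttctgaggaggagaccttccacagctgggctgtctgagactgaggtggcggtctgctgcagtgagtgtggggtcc
Cidec, chr6:113435711-113436010: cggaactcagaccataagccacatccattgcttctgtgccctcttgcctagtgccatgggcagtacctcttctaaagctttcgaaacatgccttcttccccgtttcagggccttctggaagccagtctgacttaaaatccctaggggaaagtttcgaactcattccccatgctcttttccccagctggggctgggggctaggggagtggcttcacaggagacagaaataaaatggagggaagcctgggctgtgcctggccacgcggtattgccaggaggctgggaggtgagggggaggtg
The table matched 9 of the 10 genes, with 12 windows in all. Searched on both strands, AGGTCA occurred in 3 of these 12 windows, 2 of them at the separate starts of Plin5 and 1 at Plin2, against 16.3% of all 32851 windows in the table. It began 170 bases before the start in the printed Plin5 window and 218 bases before the start in that of Plin2. The direct repeat of AGGTCA with 1 base of any kind between its copies, which contains AGGTCA at each end, occurred in 0 of the 12 windows and in 0.0396% of all windows. These are matches of letters, and binding was not measured.

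Of the 10 droplet genes, 9 reached 1 TPM in both hearts (TPM is a relative abundance of transcripts, corrected for their length). Among the 16517 genes whose counts in both libraries sum to 20 or more, 12775 did so. The median level of the 10 droplet genes was 29.8 and 30.3 TPM in replicates 1 and 2, beside 6.48 and 6.40 TPM over those 16517 genes. Cidec was the member below 1 TPM in a library, with 3.87 and 0.59 TPM in replicates 1 and 2. The libraries held 40184481 and 39620543 expected counts on annotated genes in replicates 1 and 2, and the members drew on 28 to 6012 of them in a library. Heart muscle markers, read as a check of the tissue, were all present at high level. Their median was 2790 and 3000 TPM in replicates 1 and 2 over 8 genes led by Myh6, Myl2 and Actc1. Of the 8, Nppa differed most between the hearts, at 247 and 463 TPM in replicates 1 and 2, a ratio of 0.529.

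**Figure D1:**
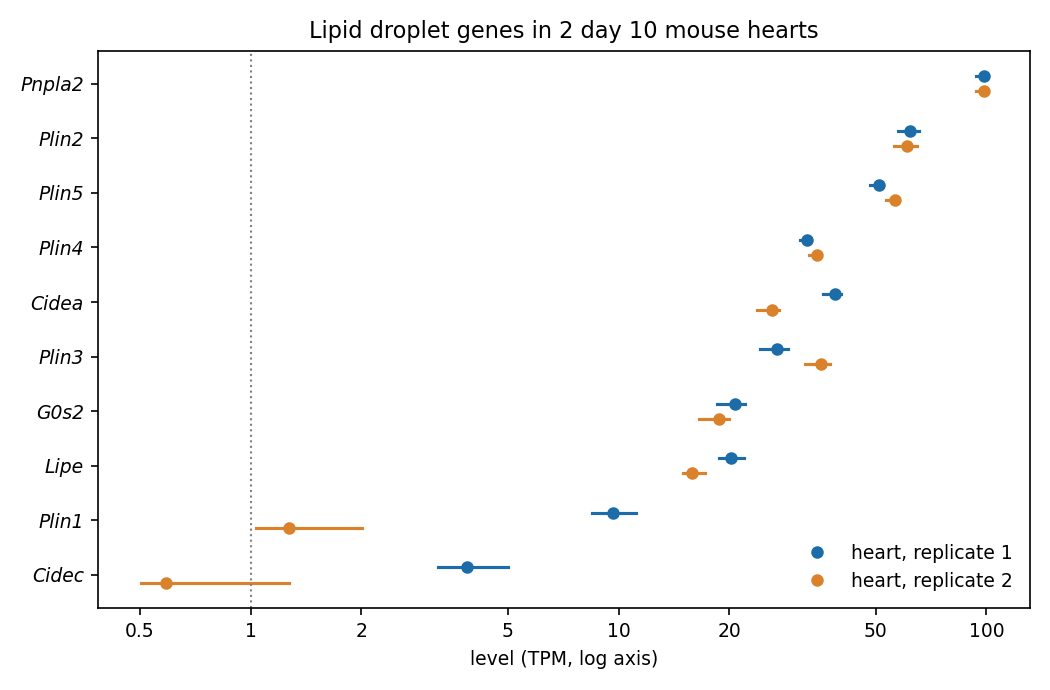
Level of each droplet gene in TPM on a log axis, 1 point per heart, with genes from high to low; bars are the authors' deposited interval of the estimate in each library and the dotted line marks 1 TPM. Pnpla2 led at 98.3 and 98.7 TPM in replicates 1 and 2, and only Plin1 and Cidec lay far apart between the hearts.

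Among the perilipins, the muscle and broadly used forms made up nearly all of the RNA. Plin2 (ENSMUSG00000028494.12, chr4:86648386-86670060) stood at 61.9 and 60.8 TPM in replicates 1 and 2. Plin5 (ENSMUSG00000011305.11, chr17:56111601-56117596) stood at 50.9 and 56.5 TPM in replicates 1 and 2. The order of these 2 genes was the same in both hearts and their ranges did not overlap, although with a mean log2 ratio of Plin5 over Plin2 of −0.19 ± 0.12 (SD, n = 2) they were not apart by more than 3 SD. Plin4 (ENSMUSG00000002831.13, chr17:56100591-56109803) followed at 32.6 and 34.6 TPM in replicates 1 and 2, and Plin3 (ENSMUSG00000024197.10, chr17:56277476-56292873) at 27.0 and 35.6 TPM. Plin1 (ENSMUSG00000030546.14, chr7:79720218-79732903) was the lowest perilipin in both hearts, at 9.67 and 1.27 TPM in replicates 1 and 2. These are gene totals, and that of Plin2 includes short and noncoding transcripts. The noncoding Plin2-208 held 20.9% and 23.0% of it in replicates 1 and 2. Plin2-201, its longest coding transcript, stood at 35.9 and 29.3 TPM in replicates 1 and 2. In both hearts that was below Plin5, whose 2 transcripts have an identical coding region. The total of Plin3 rests in large part on a short transcript. Plin3-202, of 562 bases, held 47.2% and 53.3% of that total in replicates 1 and 2, on 185 and 270 counts. Plin3-201, of 3645 bases, stood at 14.3 and 16.6 TPM. The shares and margins of Plin3 given below are of the total.

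As shares of the summed perilipin TPM, which was 182 in replicate 1 and 189 in replicate 2, Plin2 held 34.0% and 32.2%, and Plin5 held 28.0% and 29.9%. Plin4 held 17.9% in replicate 1 and 18.3% in replicate 2, and Plin3 held 14.8% and 18.9%. The share of Plin1 was 5.31% in replicate 1 and 0.673% in replicate 2. The sum thus differed little between the hearts while the fat-cell member took a share that was several times larger in replicate 1.

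Plin4 and Plin5 are neighbours. Both lie on the minus strand of chromosome 17 with 1797 bases and no annotated protein-coding gene between them, Plin5 upstream, and Plin3 lies 159879 bases further with 7 protein-coding genes between. Plin5 exceeded its neighbour Plin4 by 0.67 ± 0.04 on the log2 scale (SD, n = 2), 1.56-fold in replicate 1 and 1.63-fold in replicate 2, with the smallest SD of the 4 pairs that were apart. That order holds per length only: Plin4 RNA is longer, at 5756 bases against 1986, and drew more counts, 5776 in replicate 1 and 6012 in replicate 2, where Plin5 drew 3010 and 3272.

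Among the CIDE genes Cidea was the most abundant by far. Cidea (ENSMUSG00000024526.9), which in mice is best known from brown fat, stood at 38.8 and 26.1 TPM in replicates 1 and 2. In replicate 1 this lay between Plin4 and Plin5, and in replicate 2 it lay below Plin2, Plin3, Plin4 and Plin5. Cidec (ENSMUSG00000030278.11, chr6:113424634-113435760) stood at 3.87 and 0.59 TPM, and Cideb, the family member of liver and gut, at 0.45 and 0.44 TPM. Cidea therefore held 89.99% of the summed CIDE TPM in replicate 1 and 96.2% in replicate 2. The log2 ratio of Cidec over Cidea was −3.29 in replicate 1 and −5.24 in replicate 2, and its mean of −4.27 ± 1.38 (SD, n = 2) passed 3 SD narrowly. With the kallisto table its mean was −4.04 ± 1.84 and did not pass. Plin5 exceeded Cidea in both hearts, by 1.31-fold and 2.16-fold, and the mean of 0.75 ± 0.51 on the log2 scale did not exceed 3 SD.

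Pnpla2 had the highest level of the 10 genes, ahead of Lipe and G0s2. Pnpla2 (ENSMUSG00000025509.15, chr7:141455198-141460743) stood at 98.3 and 98.7 TPM in replicates 1 and 2, the smallest spread of any member. Lipe (ENSMUSG00000003123.15, chr7:25379527-25398710) stood at 20.2 and 15.9 TPM in replicates 1 and 2. Pnpla2 exceeded Lipe by 5.47-fold, with 4.84-fold in replicate 1 and 6.19-fold in replicate 2 (log2 2.45 ± 0.25, SD, n = 2). The inhibitor G0s2 (ENSMUSG00000009633.3, chr1:193272161-193273217) stood at 20.7 and 18.7 TPM in replicates 1 and 2, and Pnpla2 exceeded it by 4.98-fold (log2 2.32 ± 0.11). By the deposited kallisto TPM as well, each mean passed 3 SD. These levels and margins are of all transcripts of a gene. Transcripts annotated as protein coding held 40.9% of the Pnpla2 TPM in replicate 1 and 36.7% in replicate 2. Those above 0 were Pnpla2-202 at 19.7 and 19.4 TPM in replicates 1 and 2, Pnpla2-206 at 14.8 and 12.2 TPM, and Pnpla2-203 at 5.74 and 4.68 TPM. Neither the lead of Pnpla2 nor its margins were computed for protein-coding transcripts alone.

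The activator and the inhibitor of Pnpla2 were at like levels in TPM. Abhd5 stood at 21.7 and 18.9 TPM in replicates 1 and 2, close to G0s2 in each. The log2 ratio of Abhd5 over G0s2 was 0.07 in replicate 1 and 0.02 in replicate 2, with a mean of 0.04 ± 0.04 that did not exceed 3 SD. That likeness holds per length only. Abhd5 drew 1272 and 1293 counts in replicates 1 and 2, where G0s2 drew 501 and 443. With counts not scaled by length the mean log2 ratio was 1.44. Downstream, the monoglyceride lipase Mgll stood at 75.4 and 80.4 TPM in replicates 1 and 2, well above Lipe in both.

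In order of mean level the genes ran Pnpla2, Plin2, Plin5, Plin4, Cidea, Plin3, G0s2, Lipe, Plin1 and Cidec. Neighbours with overlapping ranges were Plin4 and Cidea, Cidea and Plin3, G0s2 and Lipe, and Plin1 and Cidec, although within each heart G0s2 exceeded Lipe and Plin1 exceeded Cidec. Plin4 and Cidea, and Cidea and Plin3, changed order between the hearts. By kallisto TPM the means of Plin3 and Cidea, 49.8 and 46.2, stood above the 40.5 of Plin4. Among 21938 nuclear protein-coding genes Pnpla2 ranked 640, Plin2 ranked 1090 and Plin5 ranked 1257, while Plin1 ranked 8349 and Cidec 10634.

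Set directly against the fat-cell perilipin, each of the other 4 perilipins was higher in both hearts, but by a different margin in each. Plin5 exceeded Plin1 by 5.22-fold in replicate 1 and 41.3-fold in replicate 2. The margins of Plin2 over Plin1 were 6.34-fold and 44.5-fold, of Plin3 2.78-fold and 26.1-fold, and of Plin4 3.35-fold and 25.3-fold. Plin1 itself differed between the animals, and none of these means exceeded 3 SD, with log2 3.88 ± 2.11 for Plin5 over Plin1 and 4.07 ± 1.99 for Plin2 over Plin1 (SD, n = 2). Plin5 over Cidec behaved likewise, at 12.9-fold in replicate 1 and 82.0-fold in replicate 2. In all, 4 of 12 pairs were apart, and with 2 animals no exact permutation test can give a p under 0.5. The share apart among pairs of all genes was not computed, so the count describes the 12 chosen pairs only.

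**Figure D2:**
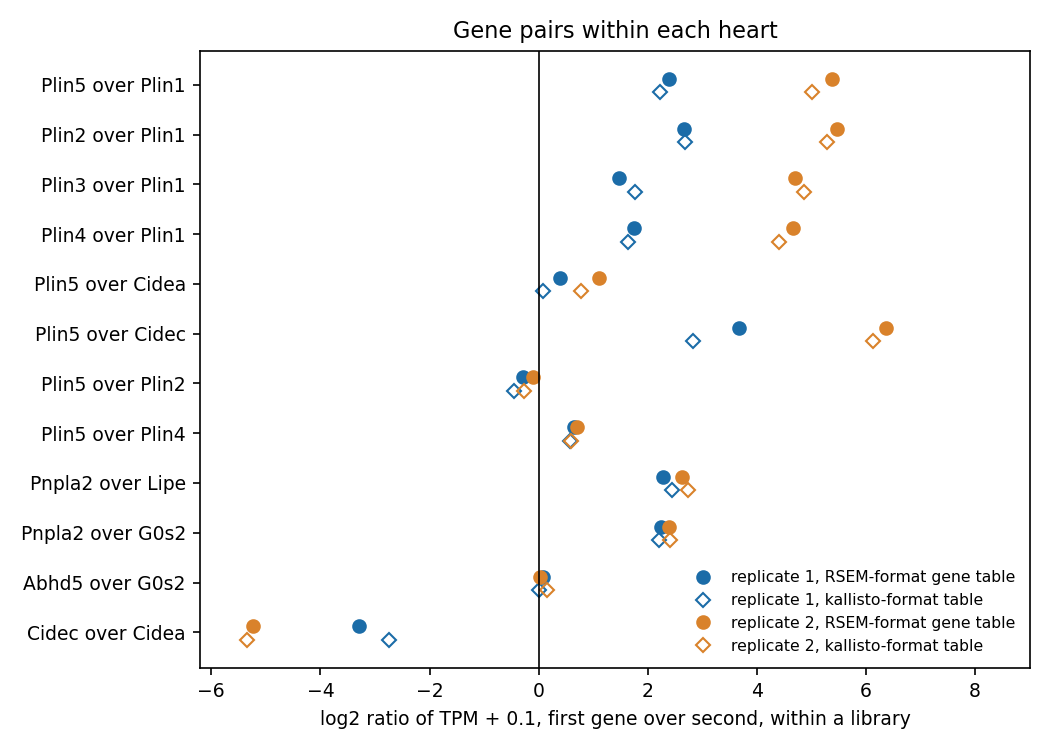
Log2 ratio of TPM + 0.1 of the first gene over the second within each heart, for 12 pairs, by the deposited RSEM-format gene tables (filled) and kallisto-format tables (open); the line marks equal levels. Pairs against Plin1 and Cidec spread widely between replicates, while Plin5 over Plin4 and Pnpla2 over G0s2 did not.

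The 2 hearts were then compared gene by gene, as the ratio of counts in replicate 1 over replicate 2 on library sizes scaled by TMM, a method that centres the ratios of most genes at equality. Plin1 drew 522 counts in replicate 1 and 71 in replicate 2, a 7.11-fold difference with a counting interval of 5.57 to 9.30. Cidec drew 155 counts in replicate 1 and 28 in replicate 2, a 5.31-fold difference with an interval of 3.58 to 8.37. These 2 of 10 members lay at least 2-fold apart, both higher in replicate 1, where 2.55% of 16517 genes lay as far apart in either direction with 1.37% higher and 1.19% lower in replicate 1. Among the 12775 of these genes at 1 TPM or more in both hearts, to which Plin1 belongs and Cidec does not, 0.54% lay 2-fold apart, with 0.243% higher and 0.297% lower in replicate 1. With 1 library each, the ratio compares 2 animals and carries no p, and the intervals (exact Clopper-Pearson, 95%) cover counting error only. In whole tissue, fewer cells of a type and less RNA per cell cannot be told apart.

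The other 8 members lay within 1.5-fold, as did 97.6% of the 12775 tested genes at 1 TPM or more in both hearts, although Cidea passed that bound with spike-in scaling (log2 0.67). Cidea came nearest to that bound, with 1235 counts in replicate 1 and 813 in replicate 2, a ratio of 1.48 with a counting interval of 1.35 to 1.62. Lipe was higher in replicate 1 as well (1.16, interval 1.08 to 1.25), as was Plin2 (1.12, interval 1.05 to 1.18). Plin3 (0.828, interval 0.777 to 0.883), Plin5 (0.895, interval 0.851 to 0.941) and Plin4 (0.935, interval 0.901 to 0.969) were lower in replicate 1, and the ratio of Plin4 passes above 1 when libraries are scaled by spike-ins. G0s2 (1.10, interval 0.966 to 1.25) and Pnpla2 (0.977, interval 0.941 to 1.02) differed by less than counting error. The median log2 ratio over the 10 members was 0.15, beside −0.002 over all tested genes.

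Several markers of fat cells were higher in replicate 1 along with Plin1 and Cidec. Of 10 fat-cell markers 7 passed the filter on counts, and 4 of these were at least 2-fold higher in replicate 1 and 0 lower, where 1.37% of all tested genes were that much higher. They were Adipoq, the fat hormone adiponectin, at 5.19 and 1.12 TPM in replicates 1 and 2, Car3 at 18.5 and 2.60 TPM, Pck1 at 9.73 and 1.70 TPM, and Cfd at 1.28 and 0.28 TPM. Fabp4 and Pparg, which other cells of the heart also express, did not share this difference, with 445 and 476 TPM for Fabp4 and 5.62 and 5.04 TPM for Pparg in replicates 1 and 2. The remaining marker past the filter, Cyp2e1, had the opposite sign, at 0.19 and 0.40 TPM, a ratio of 0.519 with a counting interval of 0.203 to 1.09. The summed level of the list was 486 and 488 TPM in replicates 1 and 2, and without Fabp4 it was 41.0 and 11.4 TPM. No marker of the list was at 0 in either heart, and Adrb3 was the lowest at 0.05 and 0.06 TPM. The 10 members and the lists were chosen with earlier results of these data known. Their counts of genes 2-fold apart, set beside the share over all genes, are therefore no separate evidence.

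Of 10 brown fat markers 5 passed the filter, and 2 of these, Ucp1 and Otop1, were at least 2-fold higher in replicate 1. Ucp1, the uncoupling protein that defines brown fat, was at 44.5 and 6.85 TPM in replicates 1 and 2, a 6.44-fold difference (interval 5.73 to 7.27), and Otop1 at 0.74 and 0.18 TPM. The summed level of the list was 60.7 and 19.9 TPM in replicates 1 and 2. The other 3 lay under 2-fold, with Prdm16 at 8.95 and 7.09 TPM, Ebf2 at 4.85 and 4.80 TPM and Dio2 at 1.07 and 0.75 TPM. The part of these cells in the values of Plin1 and Cidec was not tested.

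The levels were also set against Ucp1 within each heart. Cidec stood at 0.0870 of the Ucp1 TPM in replicate 1 and 0.0861 in replicate 2, and Plin1 at 0.217 and 0.185. For Cidea the ratio was 0.873 in replicate 1 and 3.80 in replicate 2. Lipe gave 0.455 and 2.32, and Plin5 gave 1.14 and 8.25. Against Adipoq, Plin1 stood at 1.86 in replicate 1 and 1.13 in replicate 2, Cidec at 0.746 and 0.527, and Cidea at 7.48 and 23.3. These quotients restate the ratios between the libraries within each heart and add no separate evidence.

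**Figure D3:**
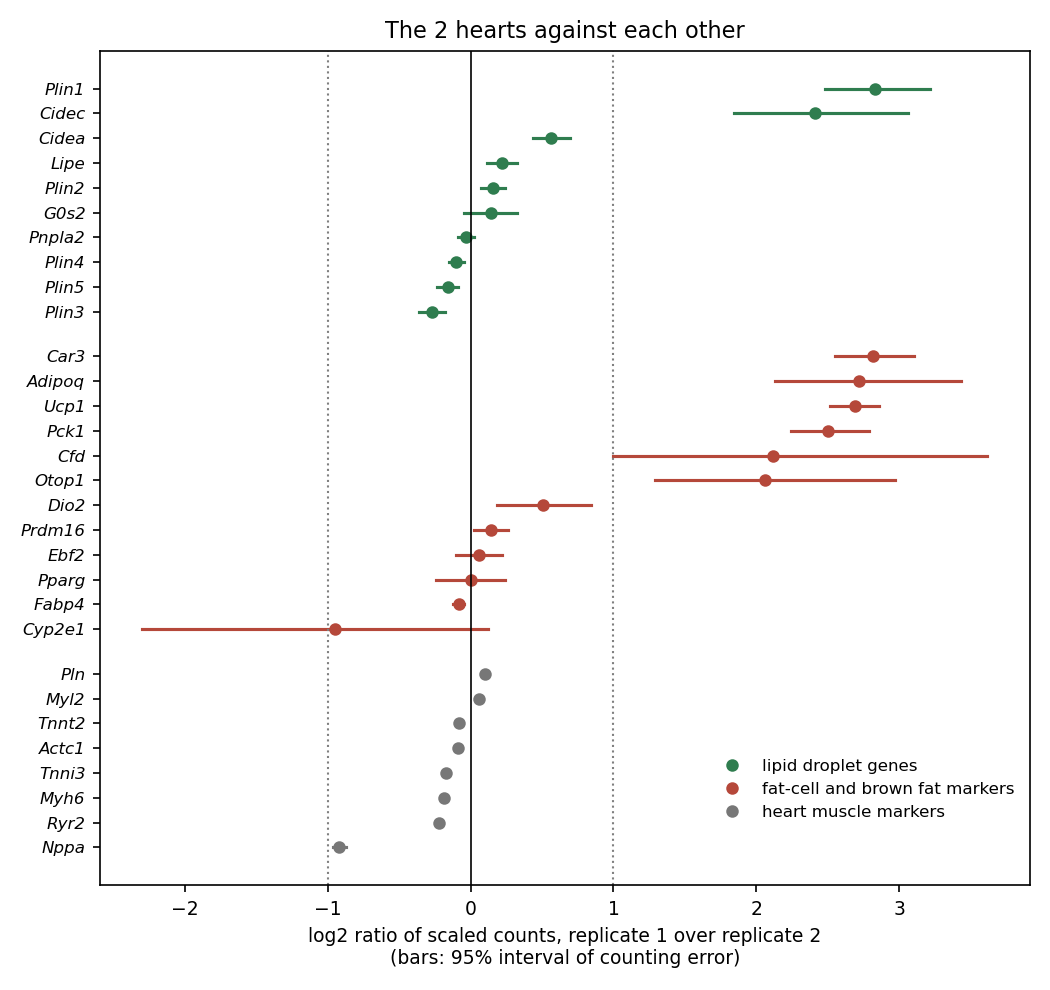
Log2 ratio of scaled counts in replicate 1 over replicate 2 for the 10 droplet genes, the fat-cell and brown fat markers past the count filter and 8 heart muscle markers; bars are 95% intervals of counting error and dotted lines mark 2-fold. Plin1 and Cidec lie with Adipoq, Car3, Pck1 and Ucp1 beyond 2-fold, and the other 8 members lie within 1.5-fold.

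The transcript tables add which forms of each gene were present. For Pnpla2, the leading transcript is annotated with a short reading frame. Pnpla2-201, annotated as a target of nonsense-mediated decay (the pathway that destroys RNAs with an early stop), held 55.7% of the TPM of the gene in replicate 1 and 59.2% in replicate 2, and 47.0% and 49.5% by kallisto. The junction that sets it apart is printed with the coding bases common to both transcripts in lower case (chr7:141455426-141455473, plus strand) and the bases that follow in capitals.
Pnpla2-201: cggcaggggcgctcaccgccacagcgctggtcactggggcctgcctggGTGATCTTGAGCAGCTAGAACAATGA
Pnpla2-202: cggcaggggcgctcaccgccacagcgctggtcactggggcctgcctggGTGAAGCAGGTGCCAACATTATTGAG
In Pnpla2-201 the capitals are the start of an extra exon of 82 bases (chr7:141456568-141456649), whose reading frame closes after 23 bases at the stop codon TGA that ends the printed sequence, leaving 70 residues. In Pnpla2-202 they open the next coding exon (chr7:141457273-141457505), and the frame runs on to 430 residues. Pnpla2-202 held 20.1% in replicate 1 and 19.7% in replicate 2, and Pnpla2-203, of 486 residues, held 5.84% and 4.74%, and 1.12% and 1.33% by kallisto. With Pnpla2-204, which carries the same extra exon, the decay class held 58.0% and 61.9% of the TPM, and 57.4% and 58.5% by kallisto. The tables give no reads over a single junction, so these shares rest on how each method divided reads between overlapping transcripts.

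Lipe RNA came mostly from forms that encode the same protein of 759 residues. Lipe-208 held 45.4% in replicate 1 and 52.6% in replicate 2, and Lipe-202 held 35.4% and 37.9%, so both together held 80.8% and 90.5%. Lipe-201, which starts further upstream and adds 43 residues, held 8.43% and 7.71%. Lipe-204, which would encode a protein 313 residues longer, was at 0 in both tables and both hearts.

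Plin5 was split between 2 starts with an identical coding region of 463 residues. Plin5-201 held 58.5% in replicate 1 and 59.6% in replicate 2, and Plin5-202 held the rest. By kallisto Plin5-201 held 89.5% and 84.8%, so its lead held with either method and its size did not. For Cidec, Cidec-202 (239 residues) held 63.5% in replicate 1 and 90.7% in replicate 2, and Cidec-203, which starts at another exon and adds 10 residues, held 36.5% and 9.28%. These Cidec shares rest on 155 and 28 counts, and by kallisto Cidec-204 held 43.6% in replicate 1 and 0 in replicate 2. Of the 8 members with several transcripts, 5 had the same leading transcript in both hearts by both methods, namely Plin2, Plin4, Plin5, Pnpla2 and Lipe, while Plin1, Plin3 and Cidec did not. For Plin4 this says little. Its transcripts, of 5756 and 5755 bases, have equal coding length and adjoining starts, so reads can hardly tell them apart. Plin4-202 held 100% in both hearts, but 53.6% and 53.8% by kallisto.

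**Figure D4:**
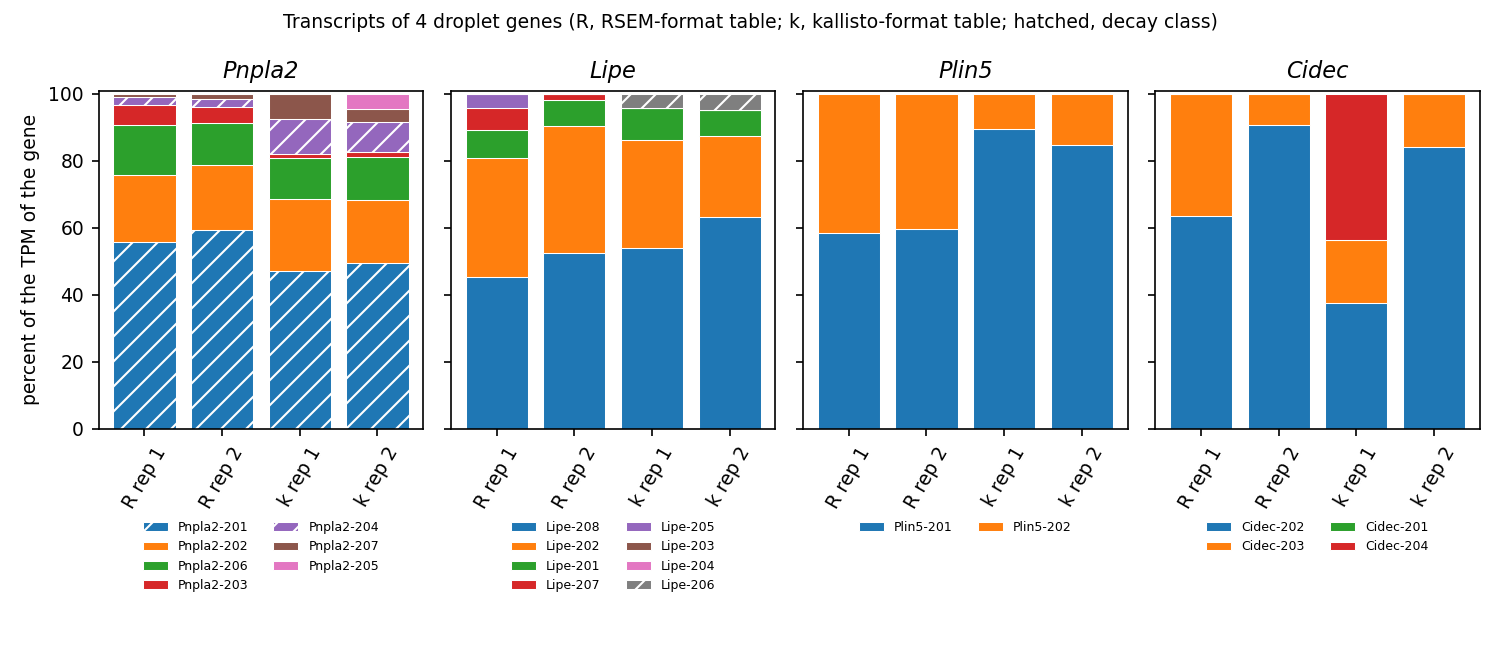
Percent of the TPM of each gene held by its annotated transcripts for Pnpla2, Lipe, Plin5 and Cidec, stacked, in replicates 1 and 2 by the RSEM-format table (R) and the kallisto-format table (k); hatching marks transcripts annotated for nonsense-mediated decay. Pnpla2-201 led in all 4 columns, while the Cidec make-up differed between hearts and methods.

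The other genes of the pathway were read as lists, and their counts of genes 2-fold apart stand beside 2.55% over all tested genes, so a low count is not particular to a list. Counts of genes detected stand beside the 12775 of 16517 tested genes at 1 TPM or more in both hearts. Some lists, unlike that share, also hold genes under the count filter. Of 19 genes of triglyceride synthesis and droplet assembly, 16 reached 1 TPM in both hearts and 0 of 17 past the count filter lay 2-fold apart. Acsl1, which activates fatty acids, led at 347 and 338 TPM in replicates 1 and 2, followed by the acyltransferase Agpat3 at 120 and 109 TPM and the droplet budding protein Fitm1, the form of muscle, at 81.1 and 79.6 TPM. Dgat2, which makes triglyceride, stood at 62.1 and 70.9 TPM, above Dgat1 at 15.1 and 13.1 TPM. The list median was 20.6 and 17.1 TPM in replicates 1 and 2.

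Of 19 partners of lipolysis, 15 were detected, led by the fatty acid carriers Fabp3 (3227 and 3038 TPM in replicates 1 and 2) and Fabp4 and by Prkar1a, a regulatory subunit of protein kinase A (239 and 227 TPM). Of the 16 past the filter 1 lay 2-fold apart: Prkar2b, the subunit common in fat and brain, was at 6.17 and 2.03 TPM in replicates 1 and 2, a 2.63-fold difference. Of 13 further proteins of droplets or of their contacts with other organelles, 10 were detected. The mitochondrial protein Mfn2 led at 246 and 243 TPM in replicates 1 and 2. Rab18 stood at 71.6 and 72.9 TPM and Aup1 at 34.6 and 32.4 TPM. Of the 12 past the filter 1 was 2-fold apart, Clstn3 at 0.81 and 0.18 TPM. Of 17 other lipases and their helpers 12 were detected, and Lpl, which frees fatty acids in capillaries, led at 440 and 519 TPM, with its anchor Gpihbp1 at 62.1 and 66.4 TPM and the phospholipase Pnpla8 at 42.4 and 42.8 TPM. None of its 13 genes past the filter lay 2-fold apart.

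All 15 regulators of lipid genes were detected, with 0 at least 2-fold apart. Cebpa, which promotes fat-cell differentiation, came nearest, at 3.07 and 1.63 TPM in replicates 1 and 2, a ratio of 1.97 with a counting interval of 1.58 to 2.49, and the shift of 0.108 on the log2 scale under spike-in scaling carries it past 2-fold. Klf15 (ratio 0.563, interval 0.4995 to 0.633) and Cebpb (0.619, interval 0.555 to 0.689) were lower in replicate 1. Esrra stood at 49.3 and 52.5 TPM in replicates 1 and 2, the coactivator Ppargc1a at 45.4 and 48.5 TPM and the glucocorticoid receptor Nr3c1 at 38.3 and 36.0 TPM. Ppara, the fatty acid receptor of heart muscle, stood at 15.8 and 16.4 TPM, above Pparg, the receptor that drives fat-cell genes, at 5.62 and 5.04 TPM.

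**Figure D5:**
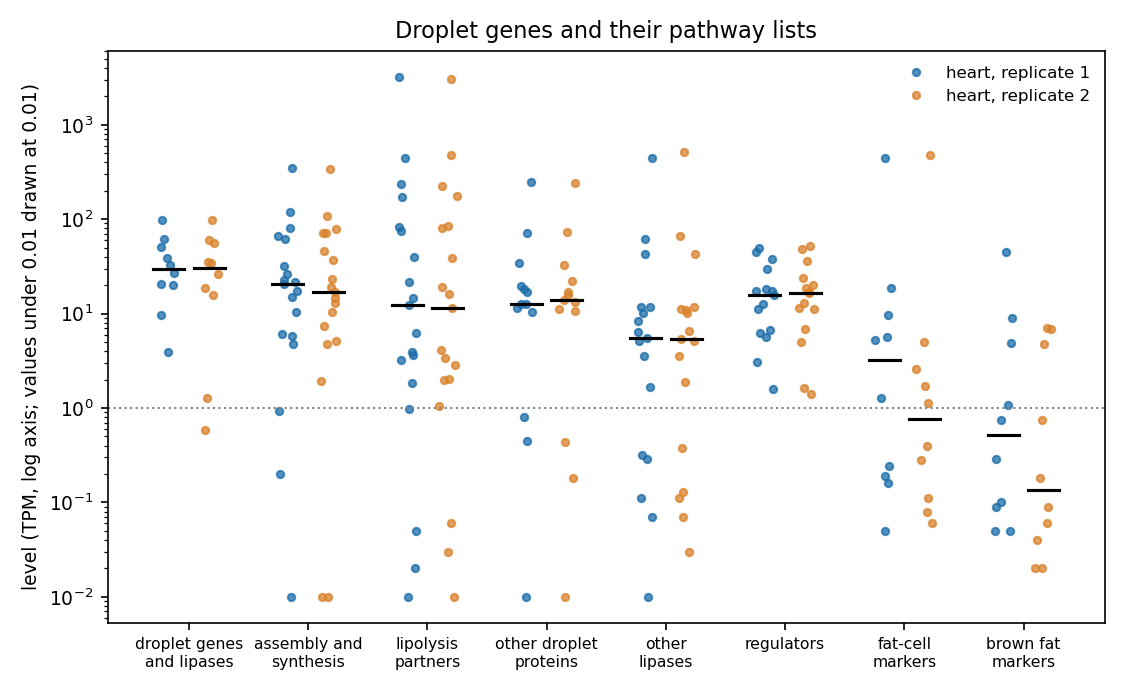
Level in TPM on a log axis of every gene in each list, 1 point per gene and heart, with black lines at the median of each list; values under 0.01 are drawn at 0.01 and the dotted line marks 1 TPM. The medians of the droplet genes and pathway lists are alike between the hearts, while those of the fat-cell and brown fat markers are higher in replicate 1. The brown fat medians, 0.515 and 0.135 TPM in replicates 1 and 2, lie under 1 TPM, and 2 of 5 brown fat markers past the count filter were 2-fold apart.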

How the data were processed

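Total RNA of 2 hearts was measured, with 1 library per animal. Per the file headers and accompanying text, the authors' deposited gene and transcript tables (assembly mm10, annotation M21) hold expected counts from transcriptome alignments, TPM with interval bounds, and the percent of the TPM of a gene in each transcript. A further deposited table holds estimated counts and TPM from reads and an index. Headers are those of RSEM and kallisto, and tool versions are not stated. Effective length was 99 nt under length in the RSEM format, and 333 and 329 nt under it in kallisto, which makes TPM of short genes differ between them.

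Spike-ins (0.541% and 0.575% of counts) and 26248 entries that name no gene (9.50e-06% and 7.33e-06%) were left out of library sizes. Ratios between libraries used edgeR 4.0.16 TMM sizes in R 4.3.3, expected counts with a prior of 0.5, a summed rounded count of at least 20 and a 2-fold bound. The calculation was tried on data simulated with counting error alone, which does not cover the spread between animals. Pairs used log2(TPM + 0.1) within a library and were read as apart when both signs matched and the mean exceeded 3 SD. Python 3.11.15, scipy 1.17.1 and matplotlib 3.10.9 were used. The genes named are the members, the markers, and of each list its 3 most abundant and its 2-fold genes. Dgat1, Dgat2, Mgll, Ppara, Cideb, Adrb3, Cyp2e1, Dio2, Cebpa, Cebpb and Klf15 were named after their values were seen. The members and lists were chosen with earlier results of these data known.

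Build mm10 is a C57BL/6J assembly, and the tables do not tell reads of CAST/EiJ alleles apart. Strand use in counting is not stated in the sources. Some reads of Lipe may therefore not be told from those of the antisense gene with which it shares stretches of 50 bases. G0s2 and Plin4 overlap genes on the other strand as well, but share no such stretch with annotated transcripts of another gene. Reads of unspliced RNA over these overlaps were not examined.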

Additional observations from a re-analysis of the deposited data

How the results depend on the processing

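The counts of members detected (8 to 10 over other thresholds, methods and scalings, and 9 to 10 with either replicate left out) and of members 2-fold apart (2 under each of 7 other settings) held. The count of pairs apart was 3 to 5 under the other methods and pseudocounts but 7 with counts not scaled by length, which also reversed Plin5 over Plin2 (mean log2 0.45) and Plin5 over Plin4 (−0.91). The count of all genes 2-fold apart was 422, and became 229 with a prior count of 5, 89 with a summed count of at least 100 and 5707 with no filter on counts. Scaling by the ERCC spike-ins shifted every log2 ratio by 0.108 and turned the sign of the small ratios of Plin4 (0.01) and Pnpla2 (0.07). The cause of the other shifts was not tested. Levels in TPM rested on the scale used: over nuclear protein-coding genes alone Plin5 stood at 126.7 TPM and Pnpla2 at 232.5 TPM, and the other members were raised in like manner. By kallisto Plin3 stood at 49.8 TPM and Cidec at 4.53 TPM, against 31.3 and 2.23 TPM. Transcript shares of Plin1 and Cidec are limited by their 71 and 28 counts in replicate 2. TPM rescaled over protein-coding genes was added to the count of members detected after seeing the data. No paired analysis was possible because there is 1 group.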

Other observations

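Markers of other cells show what else each library held. The 5 endothelial markers were all detected, with a median of 86.1 and 89.8 TPM in replicates 1 and 2 and 0 genes 2-fold apart. The 6 macrophage markers were all detected as well, at a median of 8.48 and 11.1 TPM, with 0 genes 2-fold apart. None of 6 skeletal muscle, 4 liver or 3 steroid gland markers reached 1 TPM in both hearts. Their summed levels were 2.70 and 3.31 TPM, 1.84 and 4.55 TPM, and 0.33 and 0.22 TPM in replicates 1 and 2. Tnni2 of skeletal muscle and Alb and Apoa1 of liver were at least 2-fold lower in replicate 1, each on 6 to 176 counts in a library.

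Some members share sequence with other genes. In the annotated transcripts, searched on both strands, 6 of 10 members shared no stretch of 50 bases with another gene. Plin3 shared such stretches with 105 other genes, at most 42 with any of them, and Plin1 with 79, at most 5. Plin2 shared 90 such stretches with the unprocessed pseudogene Gm12551, which was listed at 2.06 and 2.07 TPM, and Plin2 was the only member whose expected counts were not whole numbers in the tables. Lipe shared 636 with 4732471J01Rik, an antisense gene that overlaps it on the other strand, at 0.92 and 0.20 TPM in replicates 1 and 2. G0s2 lies within the span of Lamb3 on the other strand, which stood at 3.63 and 4.41 TPM, and Plin4 overlaps Hdgfl2 by 17 bases, at 17.02 and 17.54 TPM.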
